A study of Mus musculus with 6 samples.

Results

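The Zfp genes are mouse genes named for zinc finger proteins, and 121 of them are described here in RAW264.7 cells given a mimic of the microRNA miR-125b. They were chosen from the deposited table as the rows whose Ensembl identifier maps to a symbol of Zfp and a digit and whose FPKM (fragments per kilobase of gene, scaled to depth) averaged at least 2 over the 6 libraries. Zfp36 and Zfp385a were left out by name. Of 16665 rows, 331 carried such a symbol and 208 of those lay under the mean of 2. The selection used the level of each gene over all libraries, so the level itself is a description. The members were also chosen with earlier results of these data known, so the shift of the set is a description too. At the threshold, Zfp933 (mean FPKM 2.07), Zfp74 (2.04) and Zfp653 (2.00) lay just inside, and Zfp386 (1.99), Zfp687 (1.97) and Zfp398 (1.93) just outside.

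RAW264.7 is a macrophage-like line established from a tumour of a mouse infected with Abelson murine leukaemia virus, and the labels call its cells monocyte macrophage leukaemia cells. All cells grew in DMEM with fetal bovine serum and were transfected. The mimic libraries (3) carry the genotype label of miR-125b overexpression, and the NC libraries (3) carry the label of wild type for miR-125b and the short name NC, which the labels do not spell out. The series title names atherosclerosis and pyroptosis, and the comparison asks how raised miR-125b alters the transcriptome. One cell line was used, the labels give neither the dose nor the time after transfection, and they do not say whether the 3 libraries of a group came from separate cultures. The p-values therefore measure the spread between these libraries, which may be technical.

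Most proteins of this family read DNA with C2H2 fingers, short loops in which a pair of cysteines and a pair of histidines hold a zinc ion. Many also begin with a KRAB domain, which recruits the corepressor Trim28 and through it the histone methyltransferase Setdb1, and the resulting heterochromatin is best known for silencing retroelements and imprinted loci. KRAB zinc finger genes stand in clusters that expanded by duplication, and several were first studied for retroviral silencing in mouse embryonic cells. A smaller number of Zfp proteins act outside DNA: on messenger RNA, ribosomes, the spindle or ubiquitin.

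The sequence of mature miR-125b-5p and the best seed matches among the Zfp genes show what direct base pairing could involve, if the mimic carries that arm. The labels do not say which arm it holds, so miR-125b-5p is an assumption in every seed count here. The mature sequence is credited to RefSeq (build GRCm38.p6, chr9:41581940-41581961, plus strand), and capitals mark its seed, bases 2 to 8.
mmu-miR-125b-5p: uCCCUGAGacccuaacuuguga
The 8mer site of this seed (CTCAGGGA, searched on the transcript strand) was found in the 3′ untranslated region of 3 members. Capitals mark it in the transcripts of Zfp263 (chr16:3750072-3750079, plus strand), Zfp597 (chr16:3864903-3864910, minus strand) and Zfp827 (chr8:79193330-79193337, plus strand), all on GRCm38.
Zfp263: gaggtagcctgCTCAGGGAtggtttcctat
Zfp597: gagtctccctgCTCAGGGAgcccaggctgg
Zfp827: gcagtttgatgCTCAGGGAaggatgcgttc

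The KRAB domain was read from the coding sequence by a short motif: phenylalanine, any residue, an acidic residue, valine or leucine, 3 of any residue, phenylalanine or leucine, 3 of any residue, glutamate and tryptophan. Stretches from 7 members are shown because the results return to them, with capitals for the codons of the fixed residues (GRCm38). They lie at chr9:22235032-22235070 (Zfp809, plus strand), chr9:122856775-122856813 (Zfp445, minus), chr17:32975926-32975964 (Zfp472, plus) and chr17:33336798-33336836 (Zfp81, minus). The other 3 begin with a tyrosine codon in place of phenylalanine and lie at chr8:69226355-69226393 (Zfp930, plus), chr2:178069899-178069937 (Zfp931, minus) and chr2:178031267-178031305 (Zfp971, plus).
Zfp809: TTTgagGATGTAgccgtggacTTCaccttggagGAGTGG
Zfp445: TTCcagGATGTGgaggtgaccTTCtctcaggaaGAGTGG
Zfp472: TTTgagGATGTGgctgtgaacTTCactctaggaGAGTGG
Zfp81: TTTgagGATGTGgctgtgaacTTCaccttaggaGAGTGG
Zfp930: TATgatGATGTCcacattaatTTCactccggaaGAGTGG
Zfp931: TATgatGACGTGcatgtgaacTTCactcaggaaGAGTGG
Zfp971: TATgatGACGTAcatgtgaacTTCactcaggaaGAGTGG

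The first matched finger of 3 members whose values are followed closely is shown with the codons of its cysteines and histidines in capitals (GRCm38). They lie at chr4:34811291-34811353 (Zfp292, minus strand), chr7:5053096-5053158 (Zfp580, plus strand) and chr15:25984565-25984633 (Zfp622, plus strand).
Zfp292: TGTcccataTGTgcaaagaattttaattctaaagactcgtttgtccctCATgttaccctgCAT
Zfp580: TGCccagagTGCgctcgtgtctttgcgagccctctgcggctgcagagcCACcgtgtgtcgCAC
Zfp622: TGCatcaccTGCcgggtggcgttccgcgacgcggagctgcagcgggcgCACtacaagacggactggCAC
A finger with this spacing occurred at least once in 117 of the 121 translated proteins, with a median of 9 and a maximum of 30 in Zfp236. The 4 without one were Zfp36l1, Zfp36l2, Zfp330 and Zfp839.

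Recovered depth was between 14.4 and 16.8 M fragments per library, and the scarcest member in any library still rested on 37 fragments (the median of each member's lowest library was 319). NC 3 stood apart. Its log2 values correlated with NC 1 and NC 2 at 0.944 and 0.946 over 10166 tested genes, against 0.974 with mimic 3 and 0.993 between NC 1 and NC 2, and 13266 genes were above 0 in it against 15141 to 15470 in the other libraries. In 77 of the 121 Zfp genes (63.6%) NC 3 lay nearer the mean of the mimics than that of NC 1 and NC 2, close to the 65.2% of all tested genes. Macrophage markers were present (9 of 10 with a mean FPKM of at least 1, and Mrc1 at 0.0167 in the mean), with a summed FPKM of 7162 to 8635 in NC and 6407 to 6676 in mimic libraries. That sum is mostly Lyz2 (6515 to 7838 in NC, 5720 to 5998 in mimic). Log2 fold changes were -0.31 for Lyz2, -0.32 for Cd68, -0.16 for Itgam and -0.11 for Spi1. They were -0.097 for Cd14, -0.072 for Adgre1, -0.025 for Fcgr1 and -0.0067 for Csf1r. Ptprc, at 0.41, was the only tested marker of this list above 0. Mitochondrial transcripts took 6.24%, 5.77% and 9.87% of the summed FPKM in NC 1 to 3 and 8.73%, 8.80% and 8.41% in mimic 1 to 3, so NC 3 was above the mimics and the other NC libraries below them. Of 10 markers of other cells 5 had a row, and all but the haemoglobin gene Hbb-bs averaged under 1. Their summed FPKM was 0.145 to 1.61 in NC and 2.15 to 4.23 in mimic libraries. Hbb-bs was at 1.00, 0.465 and 0 FPKM in NC 1 to 3 and at 1.98, 3.84 and 2.79 in mimic 1 to 3, so it was higher in every mimic library. The part of either list, or of the mitochondrial share, in the Zfp values was not tested. In bulk RNA, fewer cells of a kind and less RNA per cell cannot be told apart.

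Zfp genes as a set sat higher in the mimic libraries, though no single gene passed the test. Because the set was chosen with earlier results known, the shares and medians below describe it and do not test it. On the log2(FPKM + 1) scale, 97 of the 121 (80.2%) had a fold change above 0, against 56.3% of all 10166 tested genes. Their median log2 fold change was 0.23, from -0.42 to 0.74, against a median of 0.041 over all tested genes. In limma with Benjamini-Hochberg adjustment over all tested genes, 0 members passed an adjusted p of 0.05 and the smallest adjusted p was 0.332. The share of all genes that passed was 0%. At an unadjusted p under 0.05 limma gave 23 Zfp genes above 0 and 1 below, where the background was 7.96% of all genes higher and 5.26% lower. Voom on fragments recovered from the FPKM also passed 0, and at the same unadjusted level it gave 27 above and 0 below (background 8.94% and 4.78%). All 3 mimic values exceeded all 3 NC values in 25 members (background 12.6%), and all 3 lay below them in 3 members (background 7.49%). Of the 121 genes, 114 averaged at least 2 in both groups, and their median log2 fold change was 0.22, with 91 higher and 23 lower.

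**Figure D1:**
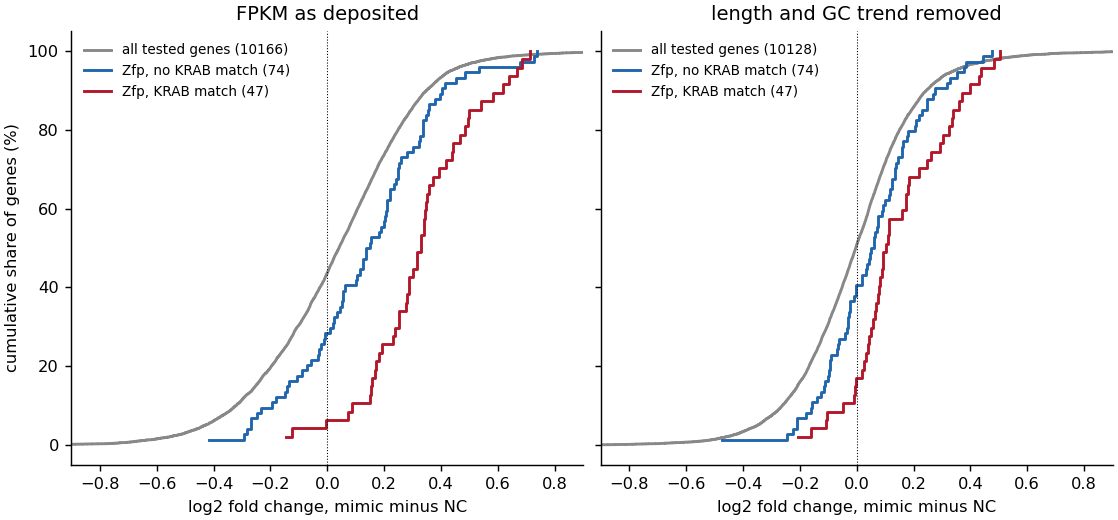
Cumulative share of genes (vertical axis, percent) by log2 fold change, mimic minus NC (horizontal axis), for all tested genes (grey), Zfp genes without a KRAB match (blue, 74) and Zfp genes with one (red, 47, by the wider motif). On the left, with FPKM as deposited, the Zfp medians are 0.14 and 0.33. On the right, with a length and GC trend removed, they are 0.055 and 0.10. The axis does not reach the most extreme of all tested genes.

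The higher level was carried by mimics 1 and 2 against NC 1 and 2. The median deviation of the 121 genes from their own means over the 6 libraries was -0.14 and -0.13 (log2) in NC 1 and NC 2, and 0.17 and 0.19 in mimic 1 and mimic 2. NC 3 (-0.040) and mimic 3 (-0.023) fell close together between these pairs. Over all tested genes the median deviation was 0.034, 0.022 and -0.10 in NC 1 to 3. It was 0.052, 0.0475 and -0.039 in mimic 1 to 3. With a trend on exon length and GC removed (described below), the member medians were -0.035, -0.043 and -0.033 in NC 1 to 3. They were 0.087, 0.075 and -0.032 in mimic 1 to 3, so mimic 3 was then level with the NC libraries. Summed FPKM of the members was 919, 911 and 993 in NC 1 to 3 and 1110, 1144 and 1012 in mimic 1 to 3. The groups did not overlap in that sum, but NC 3 and mimic 3 lay close together in it. With NC 3 left out, the Zfp median was 0.22 against -0.0064 for all genes, and limma then called 32 members higher and 1 lower at an adjusted p under 0.05 (background 11.6% and 12.2%). Among those higher were Zfp280c, Zfp292, Zfp871, Zfp930, Zfp931, Zfp655, Zfp397, Zfp971, Zfp809, Zfp445, Zfp207, Zfp326, Zfp638, Zfp451, Zfp148, Zfp81 and Zfp26, which are described in turn. The mitochondrial share was also lower in NC 1 and NC 2 than in the other 4 libraries.

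**Figure D2:**
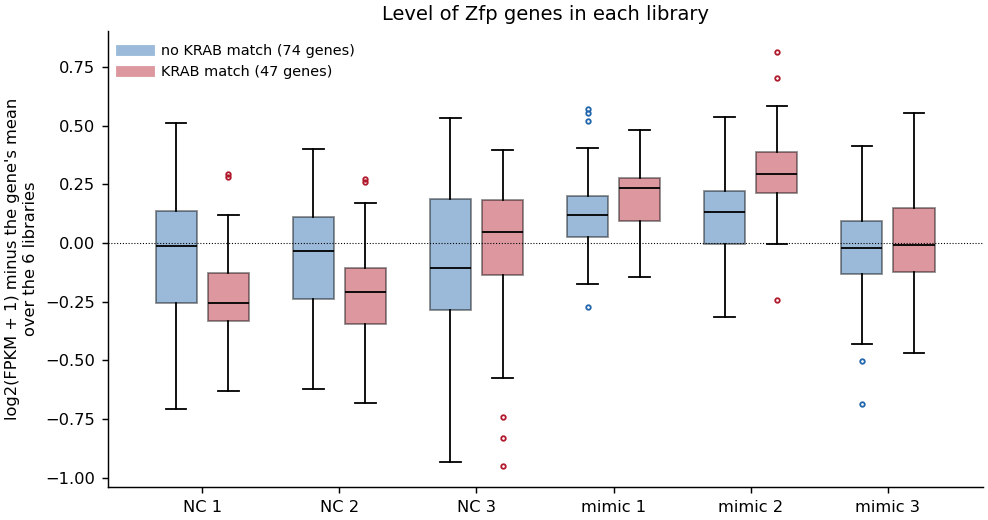
Each box is the spread over genes of log2(FPKM + 1) minus the gene's own mean over the 6 libraries (vertical axis), by library (horizontal axis), for Zfp genes with a KRAB match (red) and without (blue). Boxes span the quartiles, the line is the median, whiskers reach the last value within 1.5 quartile ranges, and open points lie beyond. KRAB medians are -0.26 and -0.21 in NC 1 and NC 2, 0.24 and 0.29 in mimic 1 and mimic 2, and 0.048 and -0.0099 in NC 3 and mimic 3.

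Transcript composition moved with the fold change across the whole table, and the Zfp genes sit at its AT-rich end. Their median GC, taken over the longest transcript of each gene, was 43.4% against 49.0% for all tested genes. Across genes, which are not independent replicates, the log2 fold change and GC had a Spearman rho of -0.65 over the 121 members and -0.55 over 10128 tested genes with a GC value. Of 73 members under 45% GC, 69 were higher in the mimic libraries, around a median of 0.33. Among all 2905 tested genes under 45% GC, 84.4% were higher and the median was 0.21. Of 48 members at or above 45% GC, 28 were higher with a median of 0.039, against 45.1% and -0.031 for 7223 genes. After a smooth trend on exon length and GC was removed from each library, the Zfp median was 0.076 (all genes -0.0033), and 83 members were higher and 38 lower against a background of 49.2% higher. In those values limma passed 0 members at the adjusted threshold, with 9 higher (background 4.67%) and 0 lower (background 5.07%) at an unadjusted p under 0.05. The groups lay wholly apart in 19 members that were higher (background 8.04%) and 4 that were lower (background 8.41%). Whether the trend arose in the libraries or in the cells was not tested.

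**Figure D3:**
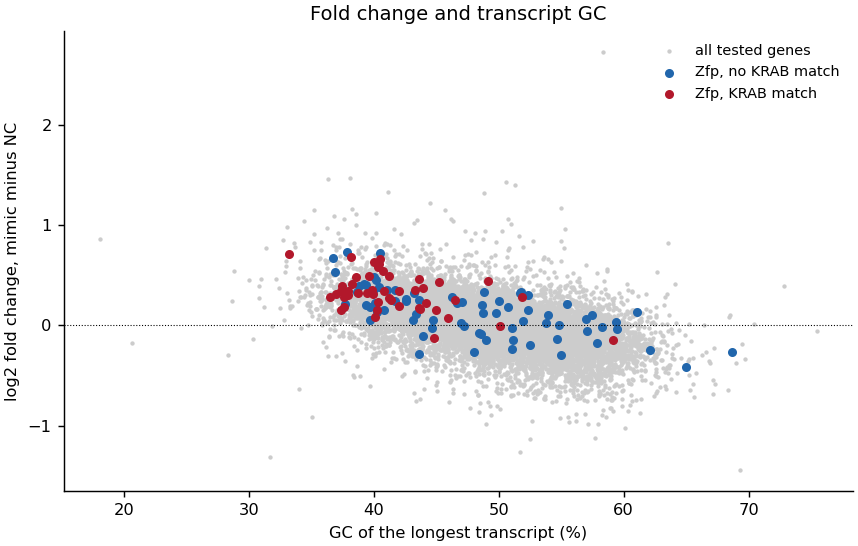
Log2 fold change, mimic minus NC (vertical axis), against the GC of the longest transcript in percent (horizontal axis). Grey points are all tested genes, blue and red points Zfp genes without and with a KRAB match. The Zfp genes lie mostly under 45% GC, where 69 of 73 are above 0.

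The single members with the smallest p in the higher direction were spread over classes of zinc finger protein. Zfp280c, an X-linked gene of the ZNF280 family, measured 7.37, 8.06 and 7.49 FPKM in NC 1 to 3 and 13.7, 15.2 and 11.6 in mimic 1 to 3. Every mimic library was above every NC library, NC 3 included. Its log2 fold change was 0.74 (SE 0.13, n = 3 and 3), with an adjusted p of 0.332 in limma. The log2 fold change was 0.48 with the trend removed. Without NC 3 it was 0.73 (adjusted p = 0.0111 in limma).

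Zfp292 encodes a very large protein with 14 matched fingers. Its FPKM was 17.3, 18.7 and 33.7 in NC 1 to 3 and 38.5, 39.3 and 34.7 in mimic 1 to 3. NC 3 was just below mimic 3, so the groups did not overlap, by a narrow gap. The log2 fold change was 0.73 (SE 0.24), 0.44 with the trend removed and 1.02 without NC 3. It was 0.62 when NC 3 was left out and the trend removed, one of 3 members called higher by limma in that setting (adjusted p = 0.0168), where 0.997% of all genes were called higher.

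Zfp871, a KRAB gene on chromosome 17, gave 17.0, 17.6 and 32.2 FPKM in NC and 32.0, 33.9 and 35.4 in mimic libraries. NC 3 lay among the mimics, so the groups overlapped. Its log2 fold change was 0.64 (SE 0.23), and 0.50 without NC 3 and with the trend removed (adjusted p = 0.0305 in limma). The third such member, Zfp930, gave 3.28, 2.91 and 6.06 in NC and 6.91, 7.37 and 6.42 in mimic libraries. Its groups did not overlap, again with NC 3 near the mimics, and its log2 fold change was 0.69, and 0.56 in that setting (adjusted p = 0.0338 in limma).

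Zfp655, described in humans as a Vav-interacting Krüppel-like factor, measured 10.6, 11.3 and 14.3 FPKM in NC and 17.3, 16.8 and 17.7 in mimic libraries. The groups were apart (log2 fold change 0.49, SE 0.13), and the value was 0.29 with the trend removed. Zfp518a measured 1.73, 1.70 and 1.78 in NC and 4.13, 3.96 and 2.27 in mimic libraries. All 3 NC values were alike, mimic 3 was much lower than the other mimics, and the log2 fold change was 0.68 (SE 0.20). It was 0.38 with the trend removed and 0.22 when NC 3 was also left out.

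Zfp472, a KRAB gene on chromosome 17, gave 2.16, 2.37 and 1.61 FPKM in NC and 4.14, 4.72 and 2.79 in mimic libraries. In this gene NC 3 was the lowest library, and the groups did not overlap (0.67, SE 0.19). Zfp397, a SCAN domain gene on chromosome 18 (SCAN joins zinc finger proteins to one another), gave 2.84, 3.15 and 4.24 in NC and 4.94, 5.22 and 5.21 in mimic libraries (0.49, SE 0.15), with the groups apart. Trend removal gave 0.48 for Zfp472 and 0.22 for Zfp397, and leaving out NC 3 as well gave 0.28 and 0.23.

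Zfp971 is a KRAB gene whose core starts with tyrosine. It gave 2.45, 2.55 and 4.47 FPKM in NC and 4.91, 4.94 and 5.91 in mimic libraries, a log2 fold change of 0.62 (SE 0.20) with the groups apart. Reads of this gene are uncertain, because 51.1% of its 50-base stretches occur in another gene. In total 11 members shared over 10% of such stretches, most of all Zfp97 (81.3%). Over 10% of the exon bases were covered by a gene on the other strand in 8 members, among them Zfp36l1 (55.9%), Zfp597 (27.1%), Zfp106 (26.1%), Zfp26 and Zfp219 (12.7%), and Zfp652 was in both sets. The sources used here do not state a strand setting for the counting, so these values are uncertain as well.

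**Figure D4:**
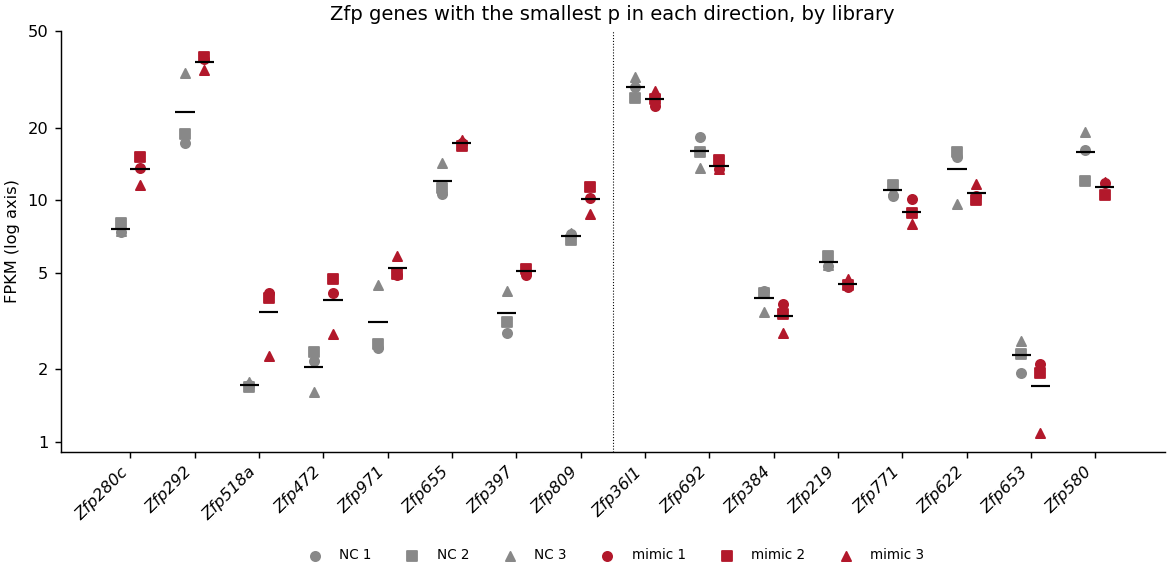
FPKM (vertical log axis) of the 8 Zfp genes with the smallest p in each direction (horizontal axis; higher in mimic to the left of the dotted line, lower to the right). Grey marks are NC libraries and red marks mimic libraries, with circles, squares and triangles for libraries 1, 2 and 3, and bars are group means. In Zfp292 the NC values run from 17.3 to 33.7, with the triangle of NC 3 next to the mimics.

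Lower values in mimic libraries were few. Zfp580, which encodes a small protein with 3 matched fingers, measured 16.2, 12.1 and 19.1 FPKM in NC and 11.8, 10.5 and 11.9 in mimic libraries. It was the only member lower at an unadjusted p under 0.05 (log2 fold change -0.42, SE 0.17, adjusted p = 0.367 in limma), and NC 2 lay just above the highest mimic. The value was -0.14 with the trend removed and 0.16 when NC 3 was also left out. Its transcript is 65.0% GC. Zfp771 (10.4 to 11.6 in NC, 7.99 to 10.1 in mimic) and Zfp219, a partner of Sox9 in cartilage, also had all mimic values below all NC values, with log2 fold changes of -0.27 and -0.25. With the trend removed Zfp219 was at -0.092 and Zfp771 at -0.0018.

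Zfp622, whose human counterpart works in late maturation of the large ribosomal subunit, gave 15.1, 15.8 and 9.62 FPKM in NC and 10.4, 10.0 and 11.7 in mimic libraries. NC 3 was the lowest of all 6, so the groups overlapped (log2 fold change -0.28, SE 0.19). Without NC 3 the value was -0.49 (adjusted p = 0.0153 in limma), and with the trend also removed -0.72 (adjusted p = 0.0305). It was the 1 member called lower in both settings, where 12.2% and 2.88% of all genes were called lower. Zfp36 and Zfp385a, left out by name, had log2 fold changes of -0.39 and -0.28 with overlapping groups. Without NC 3 they were at -0.72 and -0.85 (adjusted p = 0.00614 and 0.0120 in limma). With the trend also removed they were at -0.47 and -0.43, and neither passed (adjusted p = 0.0593 and 0.139 in limma). Zfp653, Zfp384, Zfp692 and Zfp36l1 had log2 fold changes of -0.29, -0.19, -0.18 and -0.15 with overlapping groups, and Zfp692 went to 0.073 with the trend removed.

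KRAB members had the larger values. The motif with phenylalanine first matched 38 proteins, 35 of them higher and 3 lower (median 0.32). In the 83 without it, 62 were higher, 21 were lower and the median was 0.18. A wider motif that also allows tyrosine, added after the values were seen, matched 47 (44 higher, 3 lower, median 0.33) and left 74 (53 higher, 21 lower, median 0.14). Trend removal took the medians of these 47 and 74 to 0.10 and 0.055, and leaving out NC 3 took them to 0.41 and 0.092. Median GC was 40.4% in the 47 and 47.1% in the 74. No test of the difference between these classes was made.

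The 9 members matched by tyrosine alone were Zfp120, Zfp825, Zfp930, Zfp931, Zfp932, Zfp933, Zfp97, Zfp970 and Zfp971. All 9 were higher in the mimic libraries, with a median of 0.34 and 0.17 once the trend was removed, when 7 of 9 were higher. Zfp931 gave 2.93, 2.64 and 5.65 FPKM in NC and 6.20, 5.79 and 7.58 in mimic libraries, a log2 fold change of 0.71. NC 3 was close to mimic 2 without overlap. NC 3 lay nearer the mimic mean than the mean of NC 1 and NC 2 in all 9, their median GC was 38.1%, and several share sequence with another gene (49.5% of stretches in Zfp970, 37.0% in Zfp932).

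Finger number tracked the same split. Of 51 members with 10 or more fingers, 47 were higher (median 0.30). Of 44 with 5 to 9 fingers, 34 were higher with a median of 0.21, and of 26 with 0 to 4 fingers, 16 were higher with a median of 0.11. After trend removal the medians were 0.11, 0.075 and 0.027. In the same order, 5 of 51, 9 of 44 and 5 of 26 then lay wholly higher (background 8.04%). Wholly lower were 0, 4 and 0 (background 8.41%). Median GC of the classes was 40.8%, 45.1% and 47.8%. KRAB members by the wider motif had a median of 11 fingers and the others 7. Over the 121 genes the Spearman rho between finger number and log2 fold change was 0.32, and 0.23 with the trend removed, as a description.

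Genes with a named role in silencing are few here. Zfp809 binds the proline tRNA primer-binding site of murine leukaemia viruses and recruits Trim28 to them in mouse embryonic cells. It measured 7.26, 6.87 and 7.33 FPKM in NC and 10.2, 11.3 and 8.76 in mimic libraries. The groups did not overlap and NC 3 was like the other NC libraries (log2 fold change 0.44, SE 0.13, adjusted p = 0.332 in limma). The value was 0.37 with the trend removed and 0.45 without NC 3, when it passed the adjusted threshold (adjusted p = 0.0372), and 0.40 in both (adjusted p = 0.0600).

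Zfp445, which protects imprinted methylation together with Zfp57, gave 11.2, 12.4 and 14.1 FPKM in NC and 16.9, 18.3 and 14.0 in mimic libraries. Mimic 3 was level with NC 3, so the groups overlapped (0.36, SE 0.14), and the value was 0.16 with the trend removed. Zfp932, a repressor of retroelements, gave 0.16, and -0.11 with the trend removed. Zfp568 (mean FPKM 1.25) lay under the threshold.

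The corepressor genes of the KRAB pathway, a list of 16 that all passed the filter, included 12 that were higher and 4 that were lower, around a median of 0.22. The median with the trend removed was 0.045. None passed limma's adjusted threshold (0 of 16), and 1 was higher at an unadjusted p under 0.05 (background 7.96%). That was Fam208a, the Tasor subunit of the HUSH complex (log2 fold change 0.57, with overlapping groups). Without NC 3, limma called 2 of 16 higher and 1 lower at an adjusted p under 0.05 (background 11.6% and 12.2%). They were Fam208a (0.79), Smarcad1 (0.55) and Uhrf1 (-0.47). Trim28 itself measured 73.1, 66.2 and 66.8 FPKM in NC and 66.7, 65.3 and 65.3 in mimic libraries. Its log2 fold change was -0.060 (SE 0.10), and 0.089 with the trend removed.

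Setdb1 gave 10.3, 9.39 and 7.91 FPKM in NC and 10.9, 11.5 and 11.2 in mimic libraries, with the groups apart (0.26, SE 0.13). Groups were also apart in Cbx5, Atf7ip and Morc2a (higher) and in Cbx1 (lower, -0.26), the first and last of which encode HP1 proteins that bind the mark Setdb1 writes. In all, 4 of 16 lay wholly higher and 1 wholly lower, beside the backgrounds of 12.6% and 7.49%. With the trend removed, 1 of 16 lay wholly higher and 1 wholly lower (background 8.04% and 8.41%). The log2 fold changes were then 0.16 for Setdb1, 0.049 for Cbx5, 0.0030 for Atf7ip, 0.28 for Morc2a and -0.37 for Cbx1.

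Members that work on RNA, ribosomes and the spindle include the most abundant of the family. Zfp36l2 and Zfp36l1 carry CCCH fingers in place of C2H2 ones (2 matches each) and bind AU-rich elements to start mRNA decay. Zfp36l2 measured 53.2, 55.2 and 44.0 FPKM in NC and 51.0, 50.8 and 50.6 in mimic libraries, a log2 fold change of 0.0079. Its mimic libraries were almost equal and NC 3 was the lowest. Zfp36l1 was at 29.3, 26.5 and 32.2 in NC and 24.7, 26.2 and 28.2 in mimic libraries, which overlapped.

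Zfp106, an RNA-binding protein needed by motor neurons in mice, measured 46.8, 45.7 and 31.8 FPKM in NC and 51.8, 51.3 and 42.3 in mimic libraries. Library 3 was the lowest of each group, and the groups overlapped (0.24, SE 0.17). The value was 0.062 with the trend removed and 0.060 without NC 3. Zfp207, known as BuGZ for its binding of Bub3 at kinetochores, gave 31.9, 31.0 and 49.2 in NC and 40.8, 44.3 and 45.7 in mimic libraries. NC 3 was the highest of all 6 here (0.25, SE 0.19), and without it the value was 0.46 (adjusted p = 0.0117 in limma), and 0.17 with the trend also removed (adjusted p = 0.320).

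Zfp346, which binds double-stranded RNA, Zfp598, a ubiquitin ligase that senses collided ribosomes, and Zfp326, a subunit that couples polymerase II to splicing in human cells, had log2 fold changes of 0.15, -0.033 and 0.34 with overlapping groups. The value of Zfp326 was 0.066 with the trend removed and 0.69 without NC 3 (adjusted p = 0.0189 in limma). Zfp638, whose human counterpart recruits the HUSH complex to unintegrated retroviral DNA, gave 3.80, 4.06 and 7.27 FPKM in NC and 6.89, 6.68 and 7.53 in mimic libraries, where NC 3 lay within the mimics (0.45, SE 0.22). Its value was 0.12 with the trend removed and 0.70 without NC 3 (adjusted p = 0.00740 in limma). Among ubiquitin and SUMO enzymes, Zfp451 was at 3.90, 3.84 and 5.18 in NC and 5.45, 5.57 and 6.25 in mimic libraries (0.36), with the groups apart. Its value was 0.034 with the trend removed. Zfp91, a ubiquitin ligase in the alternative NF-κB pathway, had a log2 fold change of 0.20 with overlapping groups, and 0.061 with the trend removed.

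The promoter-binding factors ranged from -0.19 to 0.35. Zfp143, an activator of snRNA and many housekeeping promoters, gave 19.3, 19.1 and 18.7 FPKM in NC and 19.2, 21.2 and 19.0 in mimic libraries, a log2 fold change of 0.054. Its libraries were almost level. Zfp148, which binds GC-rich promoters, averaged 11.5 ± 1.95 in NC and 14.9 ± 1.66 in mimic libraries (SD, n = 3 each), with NC 3 (13.7) above mimic 3 (13.0) and a log2 fold change of 0.35. Its value was 0.049 with the trend removed and 0.47 without NC 3. Zfp384, a nuclear matrix protein studied in bone cells, was at -0.19, and -0.21 with the trend removed. Zfp281 had a log2 fold change of 0.053, with NC 3 (13.5 FPKM) as its highest library.

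Some runs of neighbouring members lay wholly above 0, and others spanned it. Chromosome 7 held 23 of the 121 (19.0%, against 7.14% of tested genes), chromosome 17 held 16 (13.2% against 5.14%) and chromosome 9 held 11 (9.09% against 5.85%). Runs of at least 3 members with gaps of no more than 500 kb numbered 7 and held 30 members. The longest, at chr17:21008903-22456689 on GRCm38, held 9 KRAB genes (Zfp160, Zfp51, Zfp53, Zfp52, Zfp948, Zfp760, Zfp942, Zfp944 and Zfp946). All 9 were higher in the mimic libraries, from 0.18 to 0.54 with a median of 0.33, and the median was 0.11 with the trend removed. Median GC in the run was 38.5%, and 2 of the 9 lay wholly higher (background 12.6% of all tested genes). Among all 47 KRAB members by the wider motif, 44 were higher, with a median of 0.33 and quartiles of 0.21 and 0.44. Whether position added to this was not tested.

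The second run on chromosome 17, at chr17:32765496-33631779, held Zfp871, Zfp472, Zfp81 and Zfp414, with a median of 0.52 and 0.25 with the trend removed. Zfp81 gave 4.91, 4.52 and 5.91 FPKM in NC and 7.29, 7.66 and 6.13 in mimic libraries, apart by a small gap between NC 3 and mimic 3. Zfp414, the one member of the run without a KRAB match, was at -0.058. The run at chr9:20428449-20521417 (Zfp26, Zfp426 and Zfp266) had a median of 0.47 and 0.26 with the trend removed.

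In that chromosome 9 run the libraries behaved differently from gene to gene. Zfp426 measured 1.95, 2.06 and 2.04 FPKM in NC and 3.95, 3.38 and 2.34 in mimic libraries, with NC 3 like the other NC libraries. Zfp26 measured 3.23, 3.19 and 6.33 in NC and 6.31, 7.15 and 6.32 in mimic libraries, with NC 3 level with the mimics. The run at chr7:29908223-30169750 (Zfp383, Zfp74, Zfp260, Zfp382 and Zfp146) had a median of 0.35, and 0.075 without NC 3, since Zfp382 (1.54 FPKM) and Zfp146 (2.81 FPKM) were lowest in that library. Values in this chromosome 7 run went from -0.12 to 0.44. Runs at chr18:23954692-24020810 (Zfp397, Zfp35 and Zfp24) and chr9:22055411-22307648 (Zfp653, Zfp809 and Zfp810) also spanned 0, from -0.11 to 0.49 and from -0.29 to 0.44. The run at chr8:69209038-69710724 (Zfp930, Zfp868 and Zfp869) went from 0.17 to 0.69.

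**Figure D5:**
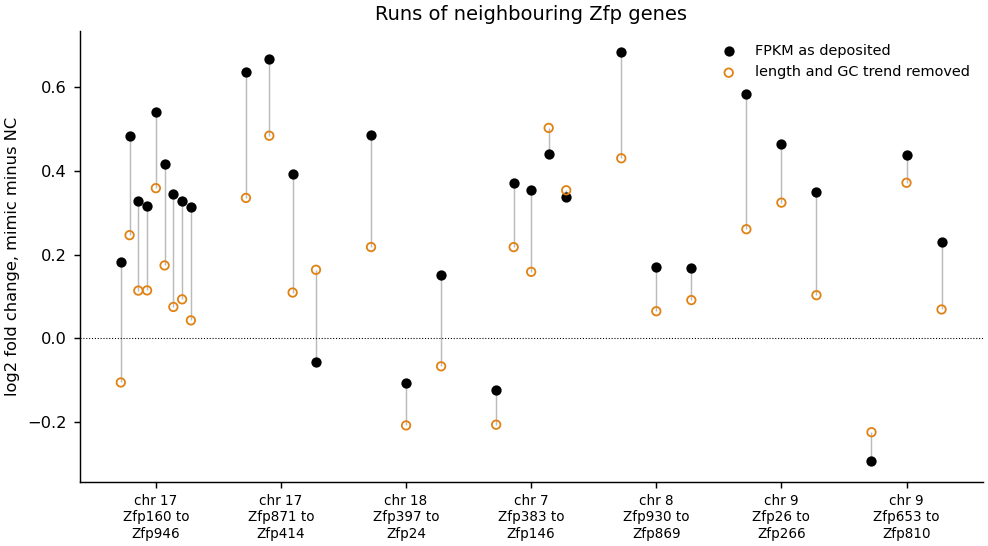
Log2 fold change, mimic minus NC (vertical axis), of the members of each run of neighbouring Zfp genes (horizontal axis, named by chromosome and by first and last gene, genes in order of position). Filled points use FPKM as deposited and open points the values with the length and GC trend removed. All 9 filled points of the first run lie above 0, from 0.18 to 0.54.

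Seed matches were no more frequent among the Zfp genes than elsewhere. Of 120 members with an annotated 3′ untranslated region, 24 (20%) held a site of at least 7 bases, against 22% of 9305 tested genes, and 3 held an 8mer, against 5.29%. The median length of the region was 1448.5 bases in members and 1134 in all. The median was 0.23 over the 24 with a match (21 higher, 3 lower) and 0.23 over the 96 with none (75 higher, 21 lower). Trend removal gave 0.069 and 0.076. No test of this difference was made.

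The 3 members with an 8mer did not lie wholly lower in the mimic libraries. Zfp263 gave 7.80, 9.58 and 11.7 FPKM in NC and 8.71, 9.81 and 8.68 in mimic libraries, a log2 fold change of -0.072 (SE 0.16). Its mimic values lay within the NC range. Zfp597, an imprinted gene in humans, gave 3.29, 3.55 and 4.99 in NC and 4.31, 5.03 and 3.83 in mimic libraries, which overlapped (0.13, SE 0.17). Zfp827, whose human counterpart recruits the NuRD complex to telomeres, gave 2.14, 2.06 and 1.68 in NC and 2.42, 2.45 and 2.61 in mimic libraries, wholly higher (0.24, SE 0.14).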

How the data were processed

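Messenger RNA of 6 RAW264.7 libraries (3 mimic, 3 NC) was measured. The authors deposited 1 table of FPKM per Ensembl gene; fastp, HISAT2, DESeq2 and the build mm10 are named per the submitters' processing notes, and the sources used here state no version, annotation or strand setting. The members and all lists were chosen with earlier results of these data known. Symbols came from the supplied gene name table, and positions, exon lengths, GC and coding sequences from GENCODE M21 (GRCm38; 16582 identifiers found, 83 not). Proteins were translated from those coding sequences, a departure from the plan, which had named a protein table not used here. Matches follow fixed patterns; a C2H2 finger is 2 cysteines 2 to 4 residues apart, 12 residues, then 2 histidines 3 to 5 apart.

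The 10166 genes averaging 1 FPKM or more entered limma (3.58.1, under R 4.3.3) as log2(FPKM + 1), a scale that understates changes of low genes, with a mean-variance trend, two-sided, and Benjamini-Hochberg adjustment over all of them. SE is limma's standard error. Both the test and the trend removal (loess on exon length and GC, span 0.3, per library) were tested on simulated data. Fragments were recovered from FPKM, exon length and a fitted depth: 98.5% to 99.0% of low values came out whole within 0.1 fragment. No pair of libraries was a copy: the mean chi-square per gene was lowest between NC 1 and NC 2 (4.90, where sampling noise gives about 1). The titles number the libraries 1 to 3 in both groups, and a fit with the number as a block was run. Deviations from the group means correlated within each number (0.287, 0.183 and 0.339). NC 2 correlated more with mimic 1 (0.308), and NC 1 was also above 0 with mimic 2 (0.087). Library 3 of either group was below 0 with libraries 1 and 2 of the other (-0.345 to -0.151). These values set library 3 apart and do not show pairing by number. Alternatives changed the pseudocount (0.1), dropped the filter, rescaled or weighted the libraries, used the block, removed the trend, left out each library, moved the member threshold (1 or 5), or ran voom on recovered fragments. The wider KRAB motif and the requirement of a mean of 2 in both groups were added after seeing the data. Named genes are the 8 highest in mean FPKM, the 8 of smallest p on either side, the 3 on each side of the threshold, those in role lists, Trim28 and Setdb1, and those with an 8mer; others named here were chosen after their values were seen.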

Additional observations from a re-analysis of the deposited data

How the results depend on the processing

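The fit with the replicate block passed 0 members and 0 genes and changed no call, and the other pseudocount, no filter and voom also passed 0. With library weights (0.0860 for NC 3) limma called 75 members and 5276 genes. Leaving out 1 library at a time gave 0 to 33 members, 0 to 2412 genes and 30 to 74 members with groups apart: without NC 3 they were 33, 2412 and 74, and without mimic 3 the last was 62. The cause was not tested. With 1 library left out, groups separate more easily. Without NC 3, 60 members lay wholly higher and 14 wholly lower of 121, against 2855 and 3031 of 10166 tested genes. For the other libraries the share over all genes is not given, so those counts have no background here. With the trend removed the medians were 0.076 (all members), 0.098 (38 with the phenylalanine KRAB motif), 0.062 (the other 83) and 0.045 (corepressors). With NC 3 also left out they were 0.094, 0.13, 0.082 and -0.037, with 4 members and 393 genes called and 46 members apart. Of the 121 members, 34 then lay wholly higher and 12 wholly lower, against 2246 and 2354 of 10128 genes. At a mean FPKM of at least 5, 15 of 63 members were apart, 12 higher and 3 lower, against 12.6% and 7.49% of all tested genes. Median ratio scaling took the median of all genes from 0.041 to 0.0062 and of members to 0.19. Some single log2 fold changes crossed 0, among them Zfp580, the lowest member (-0.42). With the trend removed they were Zfp692 0.073, Zfp933 -0.048, Zfp386 -0.028, Zfp932 -0.11, Zfp143 -0.035, Zfp281 -0.098, Zfp598 0.13, Trim28 0.089, Zfp597 -0.100. With NC 3 also left out they were Zfp106 -0.099, Zfp36l1 0.031, Zfp580 0.16, Zfp771 0.17, Zfp219 0.049, Zfp692 0.13, Zfp933 -0.076, Zfp932 -0.073, Zfp143 -0.044, Zfp598 0.13, Trim28 0.22, Zfp263 0.087, Zfp597 -0.056. Leaving out 1 library at a time gave -0.091 to 0.071 for Zfp36l2, -0.11 to 0.28 for Zfp281, -0.17 to 0.061 for Zfp598 and -0.20 to 0.059 for Zfp263. Zfp36l2 was -0.034 under median ratio scaling and -0.099 with library weights, and Trim28 was 0.00094 under quantile normalisation. FPKM carry no count error, 18 members have shared or overlapping sequence, and 3 libraries a group from 1 line limit what any single gene can show.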
